A study of Mus musculus with 27 samples.

Results

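The transcripts of the mitochondrial genome were followed in laser-captured mouse thyroid. All 37 genes whose symbol begins with mt- were taken from a table of 54532 genes, by symbol alone. They are 13 mRNAs, 2 rRNAs and 22 tRNAs. The 27 libraries fall into 3 groups of 9, each with 6 female and 3 male mice. Normal thyroid of mice that were not exposed is called NCT. Normal-looking thyroid of exposed mice that also carried a lesion is called NT, and the proliferative lesions of those same mice are called PL. The title of the series gives the exposure as radiation. The labels give no dose, strain, age or interval for any group. Total counts ran from 2923851 (NCT replicate 9) to 14148601 (NT replicate 3), and thyroglobulin (Tg), which defines thyroid follicular cells, lay between 9455 and 60010 CPM in all libraries. CPM stands for counts scaled to the size of the library, after TMM scaling for differences in RNA composition.

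The mitochondrial genome is a small circle that is transcribed from both strands into long precursor RNAs. The tRNAs lie between the other genes, and cutting them out of the precursor releases most of the mRNAs and the rRNAs. The mRNAs encode core subunits of respiratory complexes I, III, IV and V, the rRNAs and tRNAs serve the organelle's own ribosome, and every other protein of the system is made from nuclear genes. Most mammalian mitochondrial mRNAs carry short poly(A) tails, which in some of them complete a stop codon that the genome encodes in part. The libraries came from a 3′ kit that primes on poly(A), so counts follow RNA with an A-rich stretch or tail. A count of a tRNA, an rRNA or an mRNA without a tail is not its abundance.

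The ends of the mRNAs show how the genes are packed. Of the 13 mRNAs, 10 end in a whole stop codon and 3 end in a lone T in the GENCODE M21 transcripts (GRCm38). These are mt-Co3 (chrM:8607-9390, plus strand), mt-Nd4 (chrM:10167-11544, plus) and mt-Cytb (chrM:14145-15288, plus). Their last 30 bases are shown beside that of mt-Nd2 (chrM:3914-4951, plus), which has a whole stop codon. Capitals mark the encoded part of the stop codon.
mt-Co3: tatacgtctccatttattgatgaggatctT
mt-Nd4: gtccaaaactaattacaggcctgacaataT
mt-Cytb: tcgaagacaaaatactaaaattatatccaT
mt-Nd2: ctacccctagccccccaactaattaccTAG
Per kilobase of gene, the mean level over 27 libraries was 11741 CPM for mt-Co3, 10491 for mt-Nd4 and 8274 for mt-Cytb, and 7110 for mt-Nd2. Not scaled for length, it was 9205, 14456, 9465 and 7380 CPM in the same order.

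Some genes share bases, and these pairs had very unequal counts. mt-Atp8 (chrM:7766-7969, plus) and mt-Atp6 (chrM:7927-8607, plus), both subunits of the ATP synthase, share 43 bases. mt-Nd4l (chrM:9877-10173, plus) and mt-Nd4, both complex I subunits, share 7 bases. mt-Nd5 (chrM:11742-13565, plus) and mt-Nd6 (chrM:13552-14070, minus) also encode complex I subunits and share 14 bases on opposite strands. The end of the first gene of each pair and of mt-Nd6 is printed with the shared bases in capitals.
mt-Atp8: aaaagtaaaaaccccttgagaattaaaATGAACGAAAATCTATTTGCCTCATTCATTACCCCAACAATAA
mt-Nd4l: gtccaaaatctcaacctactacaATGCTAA
mt-Nd5: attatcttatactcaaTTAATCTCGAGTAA
mt-Nd6: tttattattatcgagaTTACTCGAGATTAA
The median number of mt-Atp6 counts to 1 mt-Atp8 count was 92.3 (NCT), 101 (NT) and 97.0 (PL). For mt-Nd4 against mt-Nd4l it was 98.6 (NCT), 115 (NT) and 109 (PL). Each of these pairs is known to be carried on 1 mRNA, and the counts lay almost wholly on the gene nearer the poly(A) tail. These are ratios of counts and are not scaled for length. Per kilobase, mt-Atp6 was at 12664 CPM and mt-Atp8 at 447, and mt-Nd4 at 10491 and mt-Nd4l at 451. The median ratio of mt-Nd5 to mt-Nd6 counts was 122 (NCT), 217 (NT) and 131 (PL). This too is a ratio of counts and is not read as a ratio of RNA levels. The ranges of all 3 ratios overlapped between all groups.

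Counts by class and strand were lopsided. The mRNAs took 64.8% of the 20909426 mitochondrial counts, the rRNAs 34.9% and the tRNAs 0.238%. The 28 genes on the plus strand of the reference, which are transcribed from the heavy-strand template, held 99.99% of the counts. The 9 genes on the other strand, mt-Nd6 and 8 tRNAs, held 2079 counts, or 0.00994%. mt-Nd6 is the only mRNA among them and had 819 counts over all libraries, between 8 and 58 in each. Its longest stretch of A is 3 bases, and its counts are not read here as its abundance. The strand setting of the counting is not given in the sources used here, so reads of opposite strands over a light-strand gene cannot be told apart.

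Per kilobase of gene, mt-Rnr2, the large rRNA (chrM:1094-2675, plus), was highest at 20656 CPM per kb. It was followed by the complex IV subunit mt-Co2 (14620), mt-Atp6 (12664), mt-Co3 (11741), mt-Nd4 (10491) and the small rRNA mt-Rnr1 (9755). mt-Cytb, the complex III subunit, stood at 8274, and mt-Nd2, mt-Co1 and mt-Nd1 between 5919 and 7110. mt-Nd4l (451), mt-Atp8 (447) and mt-Nd5 (394) were the lowest plus-strand mRNAs. mt-Nd6, at 9.82 CPM per kb, was lower than all of them and ranked 28 among the 37 genes. Counts from a 3′ kit need not scale with gene length, and the order depends on this scaling. Where an RNA runs past the annotated end of its gene, reads near its tail are not counted on that gene. This was not examined, so a low value, as for mt-Nd5, is not read as a scarce RNA. Not scaled for length, mt-Rnr2 (32678 CPM) was followed by mt-Nd4 (14456), mt-Co2 (10000), mt-Cytb (9465) and mt-Co1 (9421). Then came mt-Rnr1 (9316), mt-Co3 (9205) and mt-Atp6 (8624). The coefficient of variation over the 27 libraries ran from 26.7% for mt-Nd5 to 50.1% for mt-Nd3 among the plus-strand mRNAs and was 69.5% for mt-Nd6.

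Nuclear copies bear on these levels. BLAST of the mitochondrial genes against all other annotated transcripts found 11 nuclear pseudogenes in the count table with at least 95% identity over at least 100 bases. Of these, 7 lie side by side on chromosome 1, from Gm28439 (chr1:24611535-24612410, minus) to Gm29216 (chr1:24615706-24616197, minus), and read along that strand in the same gene order as the mitochondrial genome. Gm10222, Gm28437, Gm10925 and Gm28661 match mt-Nd4l, mt-Co3, mt-Atp6 and mt-Co2 with no mismatch over 294, 783, 678 and 681 bases. Their counts were near those of the mitochondrial gene in every library, at 100% to 102% for Gm10222 against mt-Nd4l and 109% to 116% for Gm28437 against mt-Co3. Gm28438 had 97.2% to 100% of the counts of mt-Nd3, and Gm29216, which matches 483 bases of mt-Co1, had 83.5% to 105%. The plot of copy counts shows these 6 pairs apart from the other 5.

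**Figure D1:**
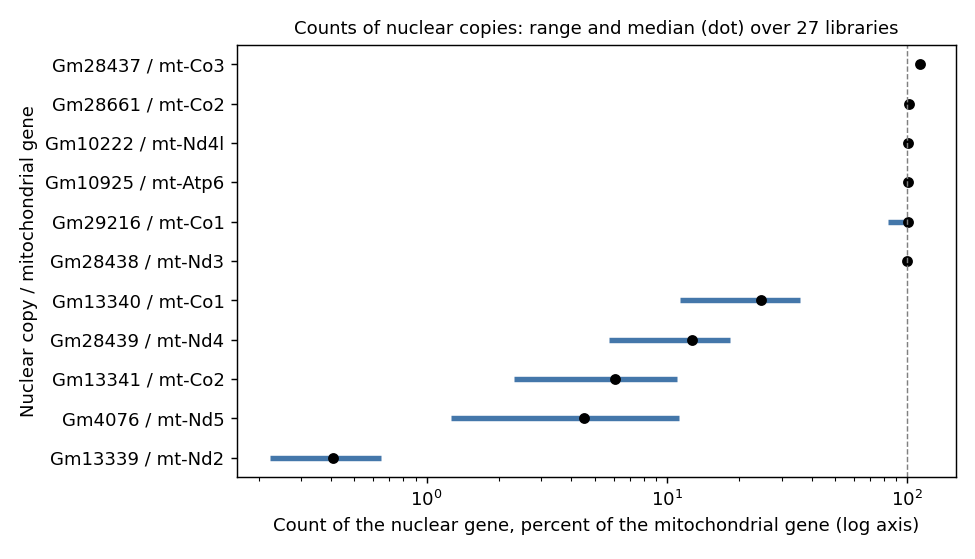
Count of each nuclear copy as a percent of the count of its mitochondrial gene (log axis), with a bar from the lowest to the highest of 27 libraries and a dot at the median. The medians of 6 pairs lie between 100% and 112%, and the other 5 between 0.406% and 24.6%.

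The other 5 copies had lower counts. Gm28439 covers 876 of the 1378 bases of mt-Nd4 and had 5.72% to 18.2% of its counts. Gm13340, at 97.6% identity to mt-Co1, had 11.3% to 35.8%, and Gm13339, at 96.7% identity to part of mt-Nd2, had 0.223% to 0.647%. Gm13341 had 2.32% to 11.0% of the counts of mt-Co2, and Gm4076 had 1.27% to 11.3% of those of mt-Nd5. No copy by these limits was found among annotated transcripts for mt-Rnr1, mt-Rnr2, mt-Nd1, mt-Cytb, mt-Atp8 or mt-Nd6. Copies outside annotated transcripts were not sought. In the mitochondrial order, mt-Atp8 falls between the genes matched by Gm28661 and Gm10925, and mt-Td between those matched by Gm29216 and Gm28661. Unannotated copies of mt-Atp8 and mt-Td in that block were not examined, so their levels may be uncertain too. The tRNA genes are shorter than the 100 bases required, so copies of them were not searched. The copies held 8027205 counts in all, 38.4% of the number on the mitochondrial genes. Whether reads that fit 2 places were counted at both or divided is not given in the sources used here, so the levels of mt-Nd4l, mt-Nd3, mt-Co1, mt-Co2, mt-Co3 and mt-Atp6 relative to the other genes are uncertain. Per kilobase and with the copies added, mt-Co2 (30419 CPM per kb), mt-Atp6 (25434) and mt-Co3 (24950) stood above mt-Rnr2 (20656). If reads were counted in full at both places, these sums count them 2 times and this order does not hold.

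mt-Td, the tRNA for aspartate (chrM:6942-7011, plus), held 42773 of the 49776 tRNA counts. Its level was 106 to 546 CPM in NCT (median 269), 157 to 318 in NT (median 221) and 120 to 321 in PL (median 204). The next tRNA, mt-Tm (chrM:3845-3913, plus), had at most 187 counts in a library, and 6 of the 22 tRNAs had 10 or fewer counts in all 27 libraries. Whole tRNA genes are printed for mt-Td, mt-Tm and mt-Tr (chrM:9808-9875, plus), the lowest of the 37 genes per kilobase. Capitals mark runs of 6 or more A, where an oligo(dT) primer could anneal.
mt-Td: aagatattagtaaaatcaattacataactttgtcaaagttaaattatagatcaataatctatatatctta
mt-Tm: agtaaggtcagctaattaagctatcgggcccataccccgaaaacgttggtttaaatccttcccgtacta
mt-Tr: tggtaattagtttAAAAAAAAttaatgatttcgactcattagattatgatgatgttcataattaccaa
mt-Tr has a run of 8 A and had 8 counts over all libraries, and mt-Td has no such run. mt-Td had the highest share of A among the 37 genes, 45.7%. A run of 6 or more A was found in 5 of 13 mRNAs, in mt-Rnr2 and in 2 of 22 tRNAs, mt-Tr and mt-Th. mt-Nd2 has 3 runs, the longest of 8 A, and the highly counted mt-Co2, mt-Atp6, mt-Co3 and mt-Cytb have none.

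The share of all counts on the 37 genes was 14.0% ± 3.63 (SD, n = 9) in NCT, 10.8% ± 1.94 in NT and 10.4% ± 1.59 in PL. The range was 10.3% to 20.3% in NCT, 8.35% to 14.0% in NT and 8.94% to 14.1% in PL. All groups overlapped. NCT replicate 6 (20.3%) and NCT replicate 9 (20.0%) lay apart from the other NCT libraries, of which the next highest had 13.5%. Both came from males, and in females the share was 12.1% ± 1.12 (SD, n = 6) in NCT, 11.2% ± 2.17 in NT and 10.9% ± 1.75 in PL. NT replicate 4 and PL replicate 4, each the highest of its group, came from the same mouse. In these bulk samples, fewer cells of a type and less RNA per cell cannot be told apart. The plot of shares shows these 2 NCT libraries highest in the mRNAs and in the rRNAs alike. One or the other of them was the highest library for 13 of 13 mRNAs.

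**Figure D2:**
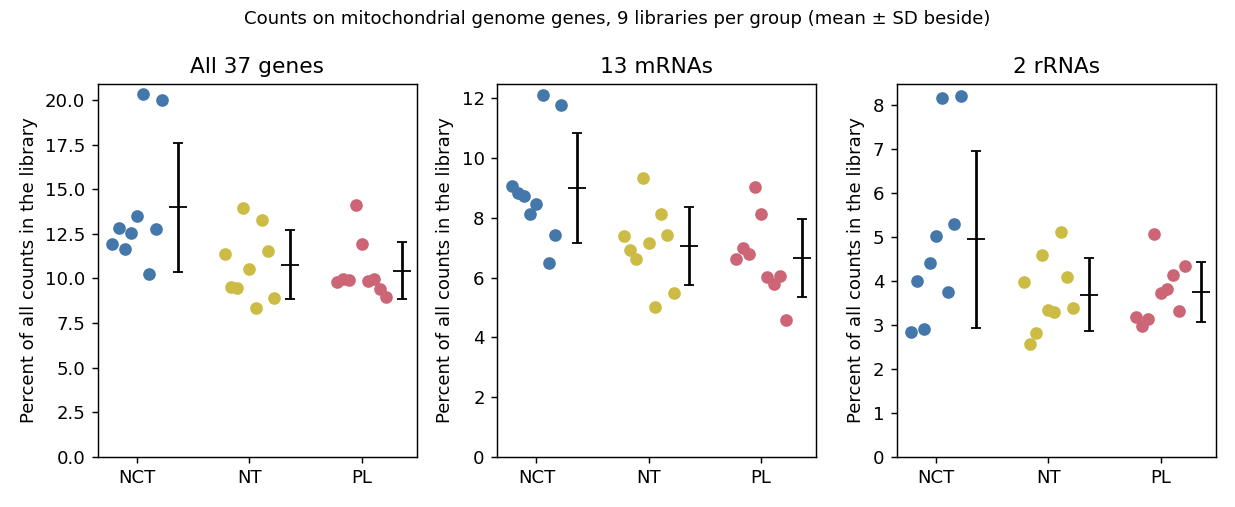
Percent of all counts in a library on all 37 mitochondrial genes, on the 13 mRNAs and on the 2 rRNAs, with 1 point per library and the group mean ± SD beside the 9 points. In the first panel NCT replicates 6 and 9 lie at 20.3% and 20.0%, and the other 25 libraries lie between 8.35% and 14.1%.

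NCT replicates 6 and 9 were also the highest in brown fat markers. Ucp1, the uncoupling protein of brown fat, was at 671 CPM in NCT replicate 9 and 345 in NCT replicate 6, and between 1.42 and 257 in the other 25 libraries. Cidea, another brown fat marker, was at 367 and 346 CPM in these libraries. They stood apart in other markers too. NCT replicate 9 had 9792 CPM of Lipf, a gastric lipase, where the other 26 libraries had at most 29.2, and it had the highest airway marker sum of NCT (5235 CPM). NCT replicate 6 had the highest skeletal muscle marker sum of NCT (682 CPM). The summed level of 16 adipocyte and brown fat markers was 878 to 6982 CPM in NCT (median 1537), 454 to 1495 in NT (median 747) and 145 to 1940 in PL (median 515). None of the 16 adipocyte markers was at 0 in all libraries, and 2 were at 0 in some. NT replicate 4, the NT library with the highest mitochondrial share, had the highest skeletal muscle sum of all libraries (2424 CPM), and NT replicate 8 had the highest Acta1 (512 CPM). The part of fat cells in the differences between groups was not tested beyond the fits reported beside them. That of muscle cells was not tested.

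**Figure D3:**
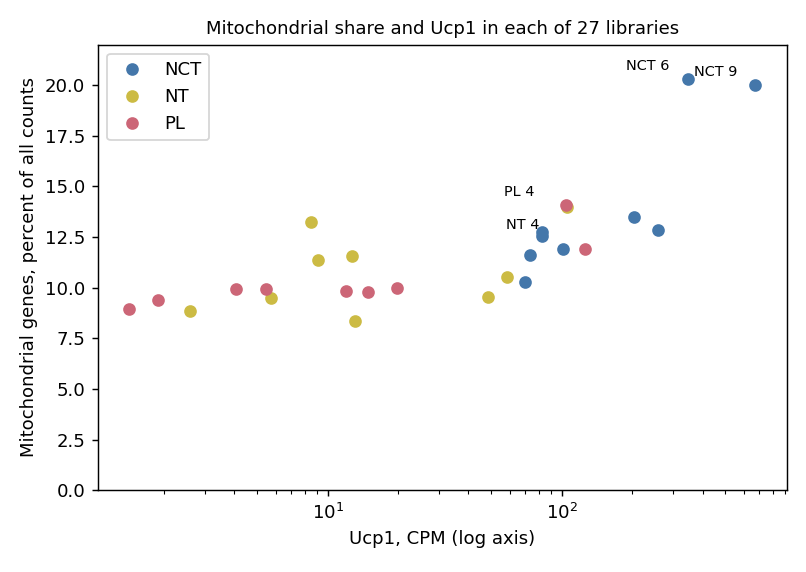
Share of counts on mitochondrial genes (percent) against Ucp1 (CPM, log axis) in each of 27 libraries, coloured by group. NCT replicates 6 and 9 are highest on both axes, and NT replicate 4 and PL replicate 4, at 105 and 104 CPM of Ucp1, have the highest shares of their groups. Skeletal muscle markers, which were also high in NT replicate 4, are not shown.

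In exposed normal tissue (NT) against unexposed tissue (NCT), all 22 tested mitochondrial genes had lower fitted levels, and none passed the test. The test was edgeR's quasi-likelihood F test over 14447 genes with Benjamini-Hochberg adjustment, in which 0.0277% of all genes were called at an adjusted p under 0.05. At an unadjusted p under 0.05, 16 of 22 mitochondrial genes were lower, where 5.98% of all genes were. Low-count tRNAs can pass edgeR's low-count filter mainly through the group where they are high, so their direction adds no support. An example is mt-Tl1, with a median of 3.93 CPM in NCT and 1.05 in NT. Of the 13 mRNAs, all 13 were lower, 11 of them at an unadjusted edgeR p under 0.05. The median log2 fold change was -0.53 for the 13 mRNAs and 0.01 for all tested genes. No gene of the 22 had ranges that did not overlap between the groups, as 0.0554% of all genes had.

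mt-Nd6, the light-strand mRNA, had the lowest median in NT. It was at 2.62 to 14.2 CPM in NCT (median 6.60) and 1.06 to 3.83 in NT (median 2.75). Of the 9 NCT libraries, 8 lay above every NT library. The log2 fold change was -1.52 (SE 0.34, edgeR adjusted p = 0.0905), and mt-Nd6 was thus not called. The tRNA mt-Tl1 had a log2 fold change of -2.18 (SE 0.61, edgeR adjusted p = 0.166) at levels of 0.169 to 10.2 CPM in NCT and 0 to 1.95 in NT. These levels rest on at most 60 counts of mt-Tl1 in a library. Of the other tested tRNAs, mt-Tg was at -0.996, mt-Ti at -0.99, mt-Tw at -0.90, mt-Tt at -0.89, mt-Tm at -0.42 and mt-Td at -0.33.

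mt-Rnr1 was at 5507 to 22952 CPM in NCT (median 13204) and 3386 to 9460 in NT (median 6394), a log2 fold change of -0.87 (SE 0.26, edgeR adjusted p = 0.208). All 9 NT libraries lay below the NCT median. Its partner mt-Rnr2 was at 23133 to 87881 CPM in NCT (median 31993) and 20046 to 41465 in NT (median 24820), at -0.50. The plus-strand mRNAs spanned -0.70 for mt-Cytb to -0.29 for mt-Co1. Among complex I subunits, mt-Nd3 was at -0.70, mt-Nd2 at -0.68, mt-Nd4l at -0.63, mt-Nd4 at -0.53, mt-Nd5 at -0.48 and mt-Nd1 at -0.42. The complex IV subunits mt-Co2 and mt-Co3 were at -0.49 and -0.33, and the ATP synthase subunits mt-Atp8 and mt-Atp6 at -0.59 and -0.42. DESeq2's Wald test called 6 mitochondrial genes lower in NT: mt-Nd6 (adjusted p = 0.00345), mt-Tn (0.0131), mt-Nd2 (0.018), mt-Nd4l (0.0182), mt-Tl1 (0.0272) and mt-Cytb (0.0338). DESeq2 called 0.813% of all genes here, more than edgeR, and mt-Tn was not among the 22 genes that edgeR tested. The adipocyte marker score, the mean log2 CPM of the 16 markers, was 4.69 to 7.15 in NCT and 2.90 to 4.94 in NT. As a covariate it therefore also takes up differences between the groups. With this covariate, the median of the mRNAs was -0.19 and 7 of the 22 genes lay above 0, mt-Co3 highest at 0.24. In females alone 4 of 21 lay above 0, mt-Td highest at 0.26, so the shared direction held in neither fit. Without the 6 libraries over 100 CPM of Ucp1 in these groups the median was -0.34.

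Lesions (PL) against the normal tissue of the same mice (NT) showed no mitochondrial gene past the test, with the mouse as a block. Of 21 tested genes, 10 were higher and 11 lower in PL, and 0 were called where 3.08% of all 14461 genes were. By edgeR's unadjusted p, 0 of the 21 were under 0.05, where 17.6% of all genes were, and DESeq2's Wald test also called 0, where it called 7.33% of all genes. The median log2 fold change of the mRNAs was -0.00, and that of all genes was 0.00. The 12 plus-strand mRNAs lay between -0.16 (mt-Nd4l) and 0.12 (mt-Nd3). The approximate 95% interval of the difference was -0.22 to 0.22 for mt-Atp6, -0.26 to 0.29 for mt-Cytb and -0.35 to 0.13 for mt-Nd2. These intervals come from the standard error and the normal distribution and are narrower than the F test implies. No member's ranges were apart between PL and NT, as 0.118% of all genes had.

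The largest fold changes of the 21 genes were those of mt-Nd6 and mt-Rnr1. mt-Nd6 was at 1.72 to 10.9 CPM in PL (median 4.29), a log2 fold change of 0.65 (SE 0.41, edgeR adjusted p = 0.451), and was higher in the lesion in 5 of 9 pairs. mt-Rnr1 was at 4709 to 12946 CPM in PL (median 7416), a log2 fold change of 0.29 (SE 0.14, edgeR adjusted p = 0.306), and was higher in 7 of 9 pairs. Neither passed the test. The 2 rRNAs did not keep a fixed ratio, since mt-Rnr2 per mt-Rnr1 count had a median of 2.93 in NCT, 4.12 in NT and 3.57 in PL, with ranges from 2.02 to 6.93 over all libraries.

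Lesions against unexposed tissue (PL against NCT) gave 6 protein-coding mitochondrial genes that fell. They encode 4 complex I subunits (mt-Nd4l and mt-Nd4 share 1 mRNA), the complex III subunit mt-Cytb and the ATP synthase subunit mt-Atp8. The calls cover 6 of 22 tested mitochondrial genes, where 4.62% of all 14234 tested genes were called lower and 10.1% in either direction. All 22 had lower fitted levels, and 11 were lower at an unadjusted p under 0.05, where 11.2% of all genes were. Low-count tRNAs can pass the filter mainly through NCT, and 0 of the 7 tested tRNAs were among these 11. The median log2 fold change of the 13 mRNAs was -0.55 and that of all genes was 0.00. This comparison shares its NCT libraries with NT against NCT and its PL libraries with PL against NT. No member's CPM ranges were apart between the groups, as 1.01% of all genes had.

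mt-Nd2 was at 5918 to 15834 CPM in NCT (median 9648) and 4215 to 7427 in PL (median 5712), with 7 of 9 NCT libraries above every PL library. Its level in PL was 0.569 of that in NCT, a log2 fold change of -0.81 (SE 0.17, edgeR adjusted p = 0.0027). mt-Nd4l was at 114 to 248 CPM in NCT (median 185) and 54.0 to 146 in PL (median 107), with a log2 fold change of -0.77 (SE 0.17, edgeR adjusted p = 0.00555). For this gene too, 7 of 9 NCT libraries lay above every PL library. Its pseudogene Gm10222, which holds nearly the same counts, had -0.77 (edgeR adjusted p = 0.00569).

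mt-Nd5 was at 569 to 1208 CPM in NCT (median 878) and 505 to 827 in PL (median 591). It fell by 0.55 on the log2 scale (SE 0.135, edgeR adjusted p = 0.0106). mt-Cytb was at 7074 to 20580 CPM in NCT (median 13464) and 4981 to 10832 in PL (median 8001), and fell by 0.72 (SE 0.18, edgeR adjusted p = 0.0136). For both genes, all 9 PL libraries lay below the NCT median. mt-Atp8 was at 81.4 to 170 CPM in NCT (median 106) and 43.0 to 102 in PL (median 82.7), and fell by 0.56 (SE 0.16, edgeR adjusted p = 0.0266). mt-Atp6, carried on 1 mRNA with mt-Atp8, was not called (-0.42, edgeR adjusted p = 0.184). mt-Nd4 was at 10835 to 28692 CPM in NCT (median 16544) and 5676 to 17273 in PL (median 12039), and fell by 0.67 (SE 0.19, edgeR adjusted p = 0.0286). When 1 library was left out at a time, the mt-Nd4 call was lost in 5 of 18 fits (without NCT replicate 1, 6 or 9, or PL replicate 6 or 7). The mt-Atp8 call was lost in 4 (without NCT replicate 2, 6 or 9, or PL replicate 3). The plot of levels shows the group ranges overlapping for each of these genes.

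**Figure D4:**
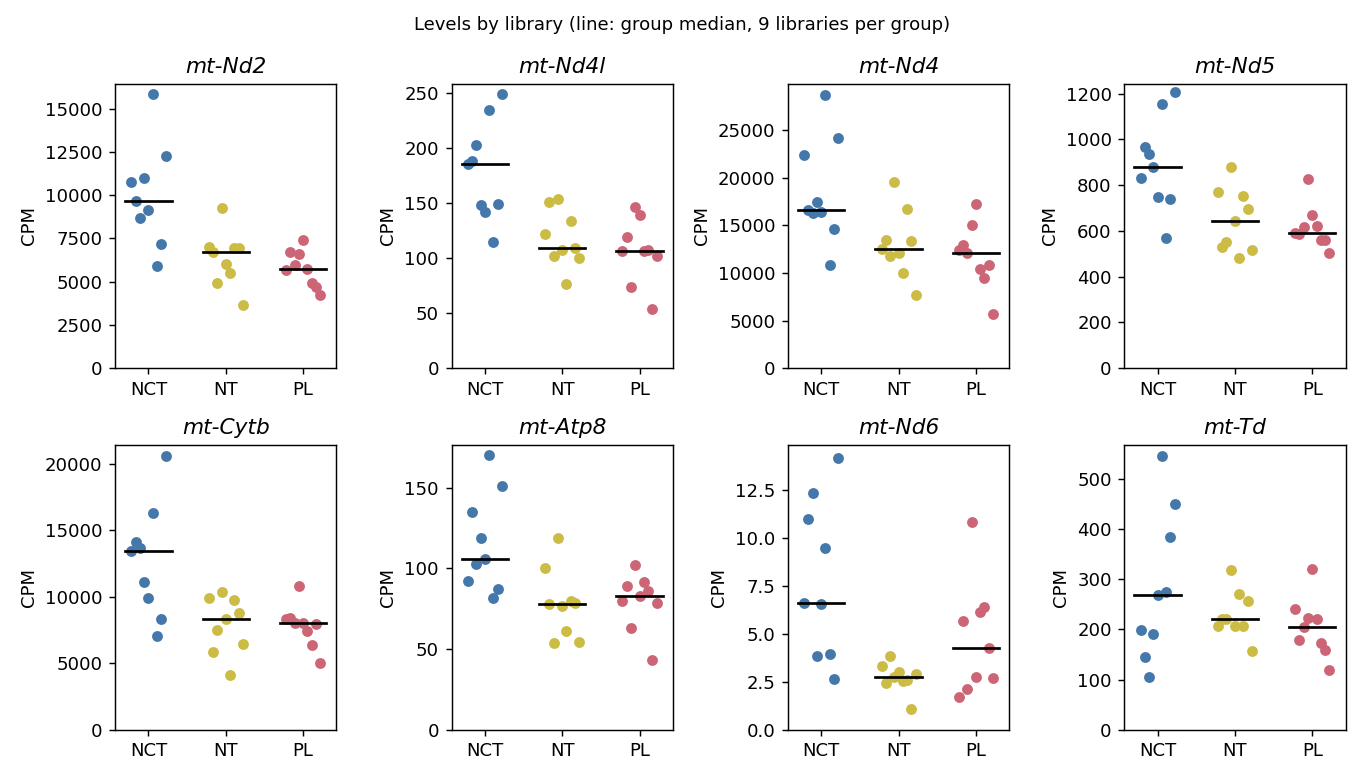
CPM of the 6 genes called lower in PL against NCT, of mt-Nd6 and of mt-Td, with 1 point per library and a line at the median of the 9 libraries of a group. The NCT median of mt-Nd2 is 9648 CPM against 6698 in NT and 5712 in PL, and the NT points of mt-Nd6 lie between 1.06 and 3.83 CPM.

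The other members were lower in PL by amounts that did not pass. The complex IV subunits mt-Co2, mt-Co1 and mt-Co3 were at -0.47, -0.36 and -0.33, mt-Atp6 at -0.42, mt-Nd1 at -0.43 and mt-Nd3 at -0.55. mt-Nd6 was at -0.73 (SE 0.38, edgeR adjusted p = 0.255). The rRNAs mt-Rnr1 and mt-Rnr2 were at -0.58 and -0.52, and the 7 tested tRNAs lay between -1.09 (mt-Tn) and -0.32 (mt-Tm), with mt-Td at -0.49. DESeq2's Wald test called the same 6 genes and also mt-Tl1 (-2.31, adjusted p = 0.00778), which did not pass edgeR's low-count filter in this comparison. It called 10.6% of all genes. The plot of fold changes places the 3 comparisons side by side.

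**Figure D5:**
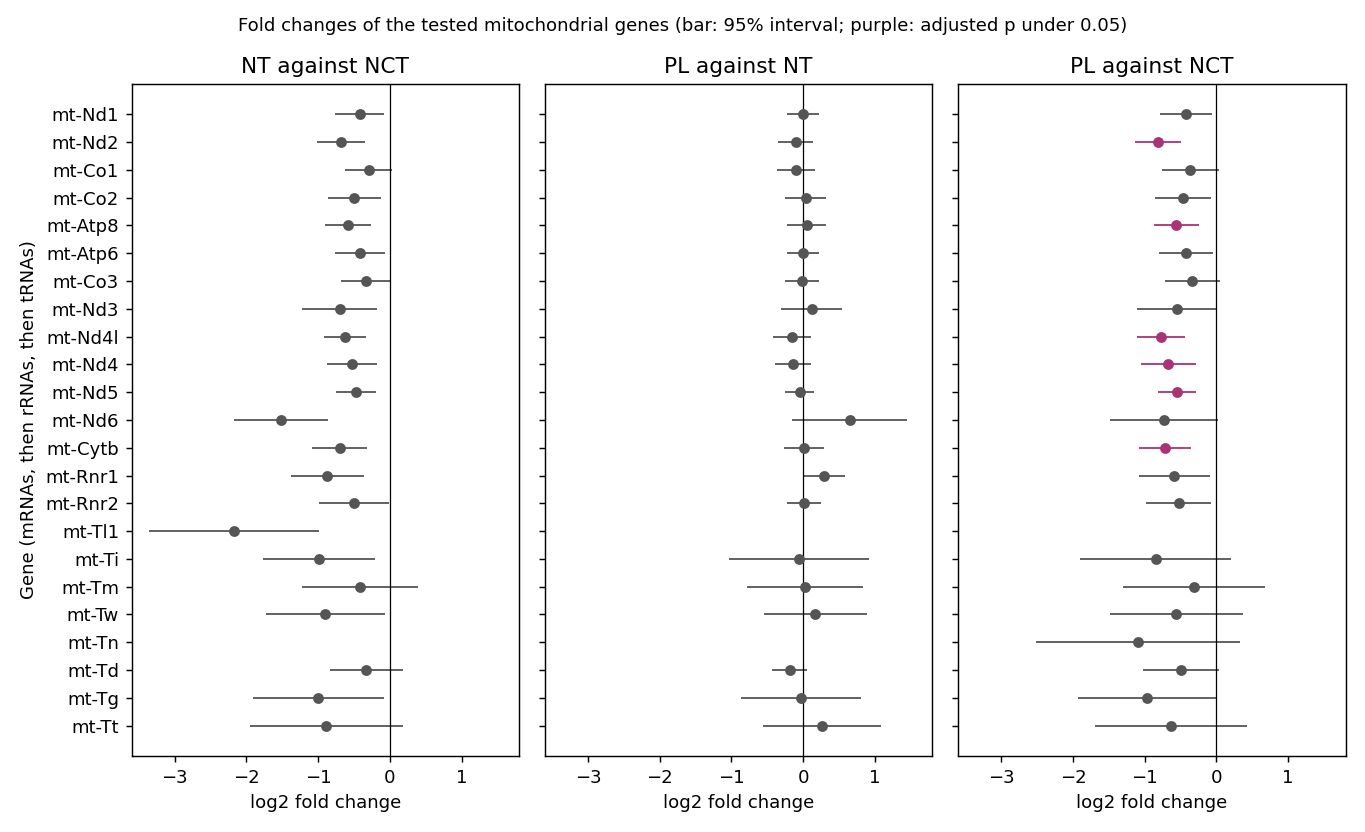
Log2 fold change of each tested mitochondrial gene in the 3 comparisons, with purple for an adjusted p under 0.05. Bars are approximate 95% intervals from the standard error and the normal distribution, and are narrower than the F test implies. For mt-Rnr2 in NT against NCT the bar ends at -0.0086, below 0, at an unadjusted edgeR p of 0.0591. All points lie below 0 in NT against NCT and in PL against NCT, and the 6 called genes are in PL against NCT.

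The calls in PL against NCT changed when adipocyte markers were taken into account. Of 14 tested adipocyte markers, 2 fell in this comparison, where 4.62% of all genes were called lower, and 0 passed in NT against NCT. At an unadjusted p under 0.05 edgeR had 12 of 14 here and 13 of 14 in NT against NCT, where 23.6% and 11.6% of all genes were. Their medians were -1.86 and -1.52. With the adipocyte marker score as a covariate, 0 mitochondrial genes were called, the median of the mRNAs was 0.06, and mt-Nd2 was at -0.41 (edgeR adjusted p = 0.501). In that fit the 6 genes called without the covariate lay between -0.41 (mt-Nd2) and -0.10 (mt-Nd4). The other 7 mRNAs lay above 0, up to 0.28 for mt-Co3, so the shared direction of the 13 mRNAs did not hold there. The calls among all genes also dropped, from 1434 to 100. The score was 4.69 to 7.15 in NCT and 1.02 to 5.39 in PL. As a covariate it therefore also takes up differences between the groups, and this fit cannot tell fat from group. Without the libraries over 100 CPM of Ucp1 (5 NCT and 2 PL), 0 mitochondrial genes and 339 of all genes were called, and the median of the mRNAs was -0.40. Without NCT replicates 6 and 9, a step chosen after seeing the data, 2 mitochondrial genes and 937 of all genes passed, mt-Nd2 at -0.63 (edgeR adjusted p = 0.0143) and mt-Nd4l at -0.61 (edgeR adjusted p = 0.0349). In females alone, mt-Nd2 passed (-0.60, edgeR adjusted p = 0.0493) among 465 of all genes, and the median of the mRNAs was -0.33. In that fit 5 of the 22 mitochondrial genes lay above 0, mt-Tm highest at 0.51.

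Markers of other cells also differed in this comparison. Of 7 tested C cell markers, 6 were called lower in PL and 1 higher, and all 7 tested airway and squamous markers were called lower. Of all tested genes, 4.62% were called lower and 10.1% in either direction. The summed levels of the C cell and the airway and squamous markers were 747 to 7312 and 355 to 5235 CPM in NCT, and 42.6 to 361 and 27.1 to 455 CPM in PL. The part of these cells in the mitochondrial differences was not tested.

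The makeup of the mitochondrial mRNA pool was set out by respiratory complex. Of the counts on mitochondrial mRNAs, complex IV mRNAs made up 35.1% ± 2.30 (SD, n = 9) in NCT, 38.4% ± 1.27 in NT and 39.0% ± 1.79 in PL. Complex I mRNAs were 40.9% ± 2.47 in NCT, 38.7% ± 2.03 in NT and 37.4% ± 1.76 in PL. mt-Cytb made up 13.2% ± 1.48, 11.4% ± 1.67 and 11.8% ± 0.853, and the ATP synthase mRNAs 10.8% ± 0.624, 11.4% ± 0.701 and 11.8% ± 1.05. The ranges of the groups overlapped for each complex, and as sums over members these shares were not tested. All these shares are uncertain because of nuclear copies. Complex IV, the ATP synthase (mt-Atp6) and complex I (mt-Nd3 and mt-Nd4l) include genes whose levels are uncertain for that reason. The mRNA total under every share includes them too. NCT replicate 9 had the highest complex IV share of NCT, 39.3%, and NCT replicate 1 the lowest, 31.3%.

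The nuclear genes that serve the mitochondrial genome were read from the same fits. Of 17 genes for its transcription and replication, all of which were tested in NT against NCT, 0 passed in any comparison, and their medians were -0.19, 0.07 and -0.02 in NT against NCT, PL against NT and PL against NCT. Tfb2m, a factor for starting mitochondrial transcription, had the smallest p of the list in NT against NCT (-0.42, edgeR adjusted p = 0.264) and in PL against NT (0.40, edgeR adjusted p = 0.138). Mterf3 had it in PL against NCT (0.83, edgeR adjusted p = 0.223). Of 23 genes for mitochondrial RNA processing and decay, 0 passed in any comparison. Lrpprc, which binds and stabilises mitochondrial mRNAs, had the smallest p in NT against NCT (-0.37, edgeR adjusted p = 0.301) and in PL against NCT (-0.45, edgeR adjusted p = 0.0974), and Tbrg4 in PL against NT (-0.36, edgeR adjusted p = 0.385). The medians of this list were -0.02, 0.06 and 0.01. At an unadjusted p under 0.05, the transcription list had 1, 1 and 0 genes and the processing list 1, 0 and 1, where 11.6%, 17.6% and 23.6% of all genes were.

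Of the regulators of mitochondrial biogenesis, 1 of 10 tested fell in PL against NCT, near the 4.62% of all genes called lower. This was Ppara, a fatty acid receptor that is also among the adipocyte markers, at -1.82 (SE 0.50, edgeR adjusted p = 0.0239). It was at 4.04 to 46.5 CPM in NCT (median 11.9) and 1.14 to 8.81 in PL (median 4.46), and its highest library was NCT replicate 6. None of the 10 passed in NT against NCT, where Ppara was at -2.22 (edgeR adjusted p = 0.114), or in PL against NT, where Tfam had the smallest p (0.24, edgeR adjusted p = 0.408). Of 30 tested nuclear respiratory chain genes, 2 fell in PL against NCT, also near that share. These were the complex I subunits Ndufa2 (-0.42, SE 0.12, edgeR adjusted p = 0.0305) and Ndufs1 (-0.54, SE 0.17, edgeR adjusted p = 0.0428). No gene of this list passed in NT against NCT, where Ndufa2 was at -0.41 (edgeR adjusted p = 0.141), or in PL against NT, where Cox4i1 was at 0.46 (edgeR adjusted p = 0.0602). At an unadjusted p under 0.05, 12, 3 and 11 of the 30 passed, and 2, 0 and 3 of the 10 biogenesis regulators. Of all tested genes, 11.6%, 17.6% and 23.6% passed at that limit. The medians of the 30 were -0.33, 0.04 and -0.31 in the 3 comparisons in the order given above, beside -0.53, -0.00 and -0.55 for the mitochondrial mRNAs, and those of all tested genes lay between 0.00 and 0.01. The summed level of the list was highest in NCT replicate 9, at 11227 CPM.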

How the data were processed

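The authors deposited raw read counts per Ensembl gene for 27 libraries. Tissue was laser-captured, RNA extracted with a micro kit and libraries made with a QuantSeq 3′ kit, per the labels' protocols. STAR, featureCounts, DESeq2 and GRCm38 are named, without role or version, per the submitters' processing notes. The handling of reads that map to several places, the strand setting and the annotation release were not stated in the sources used here. Of 54532 rows, 54409 matched a gene name, and 0.0251% of counts lay on the others.

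Groups came from the labels, and p-values measure the spread between mice. In PL against NT they measure how the difference within a mouse varies from mouse to mouse. Each comparison used edgeR 4.0.16 (R 4.3.3; quasi-likelihood F test, TMM, default low-count filter, Benjamini-Hochberg threshold 0.05) on the counts of its 2 groups, with SE taken as the log2 fold change over the root of F. PL against NT had the mouse as a block: pairs come from the same mouse, and their deviations correlated at -0.00642 to 0.232 (over 0.1 in 6 of 9). No library repeated another (chi-square per degree of freedom at least 12.9 in 108 within-group pairs). The script was tested on simulated data.

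Class, strand and sequence came from GENCODE M21 (37 of 37 matched). No genome was used, so nuclear copies were sought with BLAST 2.17.0 among annotated transcripts (at least 95% identity, 100 bases), not in the genome as planned. A-runs beyond gene ends were not analysed. Of the 37 genes, 23 passed the low-count filter in at least 1 comparison: 13 mRNAs, 2 rRNAs and 8 tRNAs.

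Members and lists were chosen with earlier results of these data known. All mRNAs, rRNAs and tested tRNAs are named by rule, with list genes past the threshold or of smallest p. The other cell type lists, as medians in NT against NCT, PL against NT and PL against NCT, were skeletal muscle 0.90, -0.65, -1.10, parathyroid 1.58, -1.25, 1.07, C cell -1.33, -3.37, -4.77, airway and squamous 0.43, -3.34, -3.41, macrophage 0.48, -0.38, 0.17, thyroid follicular 0.02, 0.42, 0.44, and adipocyte -1.52, -0.54, -1.86. Alternatives were other scalings, tests, filters, library subsets and DESeq2 1.42.0.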

Additional observations from a re-analysis of the deposited data

Results flagged for a closer look

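Among 81 sets of 9 libraries (the tested genes and 4 shares in 3 groups), 6 held a library far from the others of its group by Dixon's test. Chance flags about 1 in 20 sets, and 6 of 81 is near that rate. PL replicate 4 was far above the other lesions in mt-Rnr2 (38621 CPM, next 31093), in mt-Nd3 (3477 CPM, next 2004) and in mt-Tl1 (2.99 CPM, next 1.42). NT replicate 4, from the same mouse, was far above the other NT libraries in mt-Tn (3.76 CPM, next 1.30). NT replicate 8 was far below the other NT libraries in mt-Nd6 (1.06 CPM, next 2.44). NT replicate 7 had the lowest share of mitochondrial counts on light-strand genes in its group, 0.00269% against 0.00565% in the next.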

How the results depend on the processing

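No alternative turned the direction of a gene called in PL against NCT, but uncalled genes turned. In NT against NCT, 7 of 22 turned with the adipocyte score, 4 of 21 in females and 1 in each of 3 fits without libraries (high in Ucp1, high in Pth or Lipf, NCT replicates 6 and 9). In PL against NCT, 13 of 22 turned with the adipocyte score, 5 in females, 2 without the libraries high in Pth or Lipf and 1 without NCT replicates 6 and 9. None turned there with 1 library left out. In PL against NT, where values lay near 0, up to 7 of 21 turned. Between NT and NCT, the calls among mitochondrial genes were 0 to 1 when leaving out each library in turn (1, mt-Nd6, without NCT replicate 8) and 6 with DESeq2's Wald test. Among all genes they were 4, and 148 with DESeq2, 15 with no filter, 1 in females, 0 with the adipocyte score, 1 without the libraries high in Pth or Lipf (over 2000 CPM), 0 without those over 100 CPM of Ucp1, and 0 to 12 with a library left out. Between PL and NT, the calls among mitochondrial genes were 0 under every alternative run. Among all genes they were 445, and in the same order 1361, 832, 6, 128, 93, 261, and 137 to 529 with a mouse left out (137 without replicate 8). Without the mouse block the pairing gave 0 and 402 calls, with a median of -0.00 for the mRNAs, and changed no mitochondrial call. Between PL and NCT, the 6 mitochondrial calls became 1 in females, 0 with the adipocyte score, 0 without the libraries high in Ucp1, 2 without NCT replicates 6 and 9 (chosen after seeing the data) and 4 to 7 with a library left out (4 without NCT replicate 6 or 9). The 1434 calls among all genes became 465, 100, 339, 937 and 1128 to 1653 in that order, 797 without libraries high in Pth or Lipf and 2122 with DESeq2. The median log2 fold change of the mRNAs was 0.061 with the adipocyte score and -0.61 to -0.48 with a library left out. With the nuclear copies added (also chosen after seeing the data), the share of counts was 19.0%, 15.0% and 14.5% in NCT, NT and PL. The calls were 0, 0 and 6 in NT against NCT, PL against NT and PL against NCT. If reads were counted in full at both places, these shares count them 2 times. Without the rRNAs the share, with no copies added, was 9.54%, 7.36% and 6.95%. The light-strand share was 0.0134%, 0.00699% and 0.0097% of mitochondrial counts, 0.0209%, 0.0106% and 0.0158% without the rRNAs and 0.00808%, 0.00428% and 0.00521% without mt-Nd6. The tRNA share without the rRNAs was 0.364%, 0.386% and 0.358%. Depth limits the tRNAs other than mt-Td and mt-Nd6 most, with 58 or fewer counts of mt-Nd6 in a library.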
